A study of Amorphotheca resinae with 20 samples.

Results

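The genes described here are 53 of the 18830 genes counted in the filamentous fungus Amorphotheca resinae ZN1. Their mean reads, scaled to library size, were 2.90-fold to 70.0-fold lower with syringaldehyde than in untreated mycelia. Vanillin, a closely related compound, did not lower these reads below a set floor. The genes were selected on the read counts themselves. Each count was scaled to the total count of its library (CPM), and for each of 7 inhibitors a log2 ratio was taken of the mean CPM of the treated libraries plus 1 to the mean CPM of their own control plus 1. A gene was taken when its log2 ratio with syringaldehyde was −1.5 or lower and larger in size than those with the other 6 inhibitors, and its log2 ratio with vanillin was above −0.5. The ratios to control therefore chose the genes. They and the calls of edgeR, a test for count data, on the same contrasts are given as descriptions, beside the share of all genes called.

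Syringaldehyde, vanillin and 4-hydroxybenzaldehyde are phenolic aldehydes that are set free from lignin when plant biomass is pretreated, and they hinder the growth of fermenting microbes. All of them have an aldehyde group and a hydroxyl group on opposite sides of a benzene ring. Vanillin also has a methoxy group next to the hydroxyl group, and syringaldehyde has a methoxy group on each side of it. A. resinae is a fungus known for growing on hydrocarbons, and strain ZN1 is used to remove such inhibitors from pretreated biomass before fermentation. Fungi are known to handle aromatic aldehydes by reducing them to alcohols or oxidising them to acids.

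The study held 20 libraries in 10 groups of 2, all from mycelia of the wild-type strain ZN1 grown at 28 °C in potato-dextrose medium and collected at 4 h. The phenolic aldehyde experiment had syringaldehyde, vanillin and 4-hydroxybenzaldehyde at 0.1 g/L each, and a control without inhibitor. By molar mass these doses were 0.549 mmol/L syringaldehyde, 0.657 mmol/L vanillin and 0.819 mmol/L 4-hydroxybenzaldehyde, so equal masses were not equal molar doses. The furan experiment had furfural and 5-hydroxymethylfurfural (HMF) at 1.0 g/L each and its own control, and the weak acid experiment used 2.0 g/L of acetic acid or 4.0 g/L of formic acid, again with its own control. The furans and acids were likewise dosed by mass, and their molar doses were not computed. The labels do not say that the duplicates came from separate cultures, so the tests measure the spread between libraries, which may be technical. A lower CPM in whole mycelia does not tell fewer cells of a kind from less RNA per cell.

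The gene identifiers carry no names. None of the 18830 identifiers matched one of the 9642 reference genes of another strain of the species (0 matches), and no sequences were compared. No role can therefore be given to any of the 53 genes, and they are ordered by how they behaved. Levels of different genes are not compared, since CPM does not correct for gene length. How reads from near-identical genes were assigned is not stated, so the values of genes that have a near copy are uncertain. Libraries held 11601181 to 26106956 counted reads, and 478 to 1210 genes had no read in a library. The 2 syringaldehyde libraries differed from each other more than any other pair of duplicates, with a chi-square of 44.9 per gene against 5.34 in the closest pair.

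**Figure D1:**
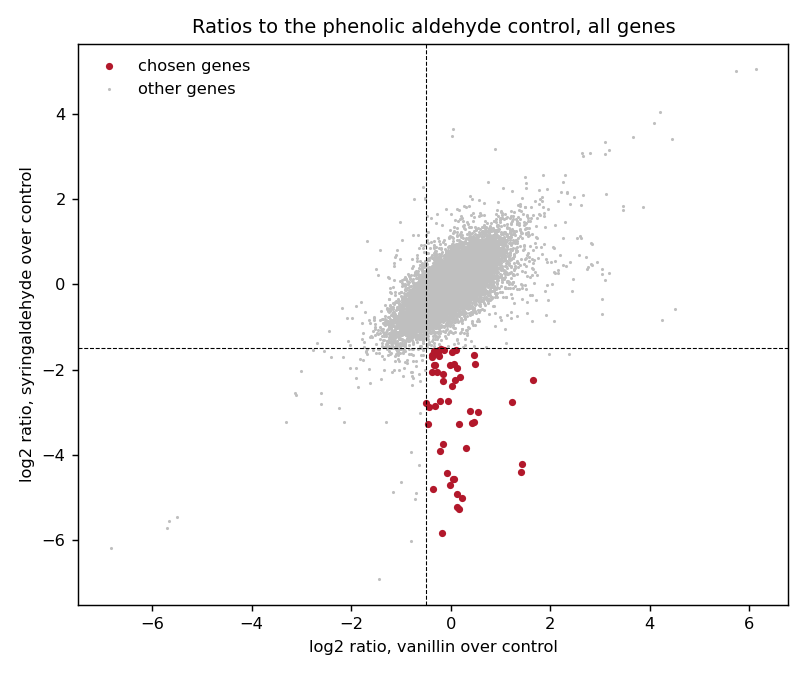
Log2 ratio of mean CPM (plus 1) to the phenolic aldehyde control for all 18830 genes, with vanillin on the horizontal axis and syringaldehyde on the vertical axis. Red points are the 53 chosen genes, grey points all other genes, and dashed lines the thresholds of −0.5 and −1.5. The chosen genes reach −5.84 with syringaldehyde and lie between −0.50 and 1.65 with vanillin.

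With syringaldehyde, the 53 genes together took 0.117% and 0.165% of the counted reads in the 2 libraries, against 1.72% and 1.43% in the phenolic aldehyde control libraries. They took 1.80% and 1.49% with vanillin and 1.96% and 2.02% with 4-hydroxybenzaldehyde. Over the 53 genes the median of the mean CPM was 8.12 with syringaldehyde, 101.4 with vanillin, 87.8 with 4-hydroxybenzaldehyde and 76.5 in the control. The same median over all 18830 genes was 17.6, 18.1, 17.7 and 18.6 CPM in these groups. The median of the chosen genes was above that of all genes in every group of the experiment but the syringaldehyde one, where it was below. A ratio of −1.5 or lower needs reads in the control and few with syringaldehyde. The rule thus favours this order, and nothing is read from it.

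The log2 ratio to control with syringaldehyde ran from −5.84 to −1.52, with a median of −2.73. It was −2 or lower in 35 genes, −3 or lower in 20, −4 or lower in 12 and −5 or lower in 4. In edgeR's quasi-likelihood test, with Benjamini-Hochberg adjusted p-values over the 17495 genes tested, all 53 genes were called lower than the control (adjusted p under 0.05), where 13.2% of all genes tested were called lower. In all 53, both syringaldehyde libraries lay below both control libraries, as they did in 29.1% of the genes tested. The rule used this contrast, and nothing is read from these counts. Of the pair, the first syringaldehyde library was the lower one in 40 of the 53 genes, with a median log2 ratio of the first to the second of −0.29 in these genes and −0.14 over all genes.

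ARZ_925_T1 had the largest fitted fall among genes with at least 10 CPM in the control. It was at 3.96 and 4.85 CPM with syringaldehyde (67 and 74 reads), against 352 and 265 CPM in the control. With vanillin it was at 329 and 218 CPM and with 4-hydroxybenzaldehyde at 518 and 469 CPM. Its vanillin libraries overlapped the control, both of its 4-hydroxybenzaldehyde libraries lay above the control, and its syringaldehyde libraries lay far below all of these. Its mean was 70.0-fold lower with syringaldehyde than in the control, and the edgeR log2 fold change was −6.12 ± 0.27 (SE, n = 2 each).

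ARZ_14127_T1 was at 1.06 and 1.51 CPM with syringaldehyde (18 and 23 reads), against 72.4 and 64.5 CPM in the control. It was at 88.1 and 61.9 CPM with vanillin and at 126 and 127 CPM with 4-hydroxybenzaldehyde. Both syringaldehyde libraries were the lowest of the experiment, and both 4-hydroxybenzaldehyde libraries the highest. The log2 fold change with syringaldehyde was −5.73 ± 0.24, and the mean was 53.2-fold lower.

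ARZ_6481_T1 and ARZ_10979_T1 had the highest control CPM of the 53 genes. ARZ_6481_T1 was at 121 and 138 CPM with syringaldehyde, against 4541 and 3871 CPM in the control, with 5322 and 4477 CPM under vanillin and 5404 and 5553 CPM under 4-hydroxybenzaldehyde. Its log2 fold change with syringaldehyde was −5.02 ± 0.26, a 32.5-fold lower mean. ARZ_10979_T1 was at 44.5 and 43.7 CPM with syringaldehyde, against 1818 and 1668 CPM in the control, 2140 and 1753 CPM with vanillin and 2211 and 2231 CPM with 4-hydroxybenzaldehyde. The syringaldehyde duplicates of ARZ_10979_T1 nearly coincided, and its log2 fold change was −5.29 ± 0.24, a 39.6-fold lower mean.

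**Figure D2:**
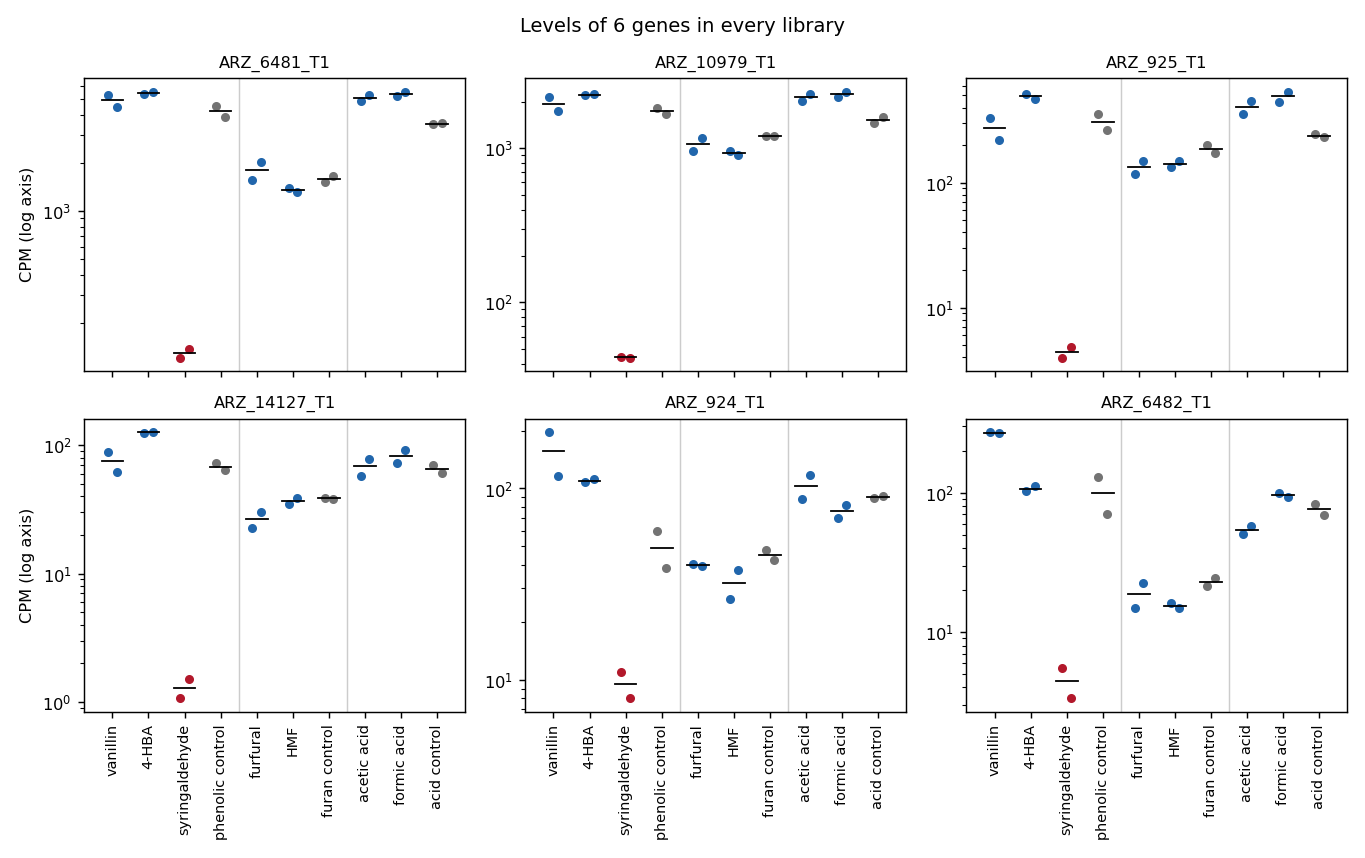
CPM on a log axis in each of the 20 libraries for 6 of the genes, the 2 with the highest control level, the 2 with the largest fall and the 2 with the highest ratio with vanillin. Points are libraries, bars group means, red points syringaldehyde, grey points controls, and 4-HBA is 4-hydroxybenzaldehyde. In each panel the 2 syringaldehyde libraries lie below the other 18, as for ARZ_925_T1 at 3.96 and 4.85 CPM.

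The weakest falls that met the rule were close to its threshold. ARZ_6541_T1, with a log2 ratio of −1.52, was at 55.8 and 78.4 CPM with syringaldehyde, against 222 and 168 CPM in the control, and ARZ_8506_T1 had a ratio of −1.53. The nearest genes left out were ARZ_7707_T1 and ARZ_10081_T1, both at −1.48. The gene with the fewest syringaldehyde reads was ARZ_12938_T1, a gene picked for its low depth, with 10 and 10 reads against 77 and 64 in the control. Its scaled reads were 5.87-fold lower with syringaldehyde, with an exact 95% interval of 3.66 to 9.90 that covers counting error only.

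With vanillin, most of the 53 genes stayed near the control. The log2 ratio had a median of −0.02 and ran from −0.50 to 1.65, where the floor of the rule sets the lower end. In 48 genes it lay between −0.5 and 0.5, and in 4 it was 1 or more. By edgeR 5 genes were called higher, or 9.43%, where 8.83% of all genes tested were called higher, and 0 were called lower, where 10.4% of all genes were. At an unadjusted p under 0.05, edgeR gave 2 lower genes and DESeq2 gave 3. With adjusted p-values DESeq2, like edgeR, called 0 lower. The rule barred the larger falls, so these counts are a description. At the floor, ARZ_7827_T1 (log2 ratio −0.50) and ARZ_11744_T1 (−0.45) were just inside, and ARZ_16107_T1 (−0.52) and ARZ_7262_T1 (−0.55) just outside.

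In a few genes vanillin and syringaldehyde moved reads in opposite directions from the control. ARZ_924_T1 was at 10.997 and 7.9999 CPM with syringaldehyde and at 197 and 116 CPM with vanillin, against 59.9 and 38.3 CPM in the control. It was at 108 and 112 CPM with 4-hydroxybenzaldehyde. No 2 groups overlapped for this gene, and the control lay between the vanillin and the syringaldehyde libraries. ARZ_6482_T1 was at 5.50 and 3.34 CPM with syringaldehyde and at 272 and 267 CPM with vanillin, against 129 and 70.3 CPM in the control, and its 4-hydroxybenzaldehyde libraries, at 103 and 111 CPM, lay within the range of the control. The log2 fold changes with vanillin were 1.66 ± 0.26 for ARZ_924_T1 and 1.42 ± 0.25 for ARZ_6482_T1 (SE, n = 2 each).

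Set directly against vanillin, syringaldehyde gave a lower CPM of all 53 genes in both of its libraries, where this held for 23.2% of the genes tested. By edgeR all 53 were called lower, where 2.84% of all genes were. The log2 difference ran from −6.67 to −1.28, with a median of −2.70. It was largest in ARZ_10978_T1, which was at 1.01 and 1.31 CPM with syringaldehyde and 114 and 127 CPM with vanillin, a difference of −6.67 ± 0.24, and this gene was picked for that value. In ARZ_925_T1 the difference was −5.93 ± 0.27. The compounds differ by a methoxy group, and the genes were chosen for a difference between them, so these calls and differences are a description and nothing is read from them. All counts here rest on 1 syringaldehyde pair: without the second syringaldehyde library the rule took 87 genes, which included all 53, and without the first it took 52, of which 44 were among the 53.

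Against 4-hydroxybenzaldehyde, which lacks both methoxy groups, syringaldehyde again gave a lower CPM of all 53 genes in both libraries, where this held for 29.8% of genes. By edgeR 51 genes were called lower, where 11.1% of all genes were, and the median log2 difference was −2.96. The rule required a negative syringaldehyde ratio larger in size than that of 4-hydroxybenzaldehyde, which fixes the direction, so nothing is read from these counts. The 2 genes not called were ARZ_6863_T1 and ARZ_15637_T1, named for that reason. ARZ_15637_T1 was at 2.13 and 2.23 CPM with syringaldehyde and at 3.12 and 4.51 CPM with 4-hydroxybenzaldehyde, against 9.99 and 6.97 CPM in the control. In this gene 4-hydroxybenzaldehyde stood between syringaldehyde and the control, with no overlap.

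Against the control, 4-hydroxybenzaldehyde gave log2 ratios from −0.98 to 1.15 with a median of 0.18. The ratio was 0.5 or higher in 13 genes, −0.5 or lower in 8 and between these in 32. By edgeR 4 genes were called higher, where 3.11% of all genes were, and 3 lower, where 5% were. The highest ratios were those of ARZ_924_T1 (1.15) and ARZ_14127_T1 (0.87), whose values stand above. The lowest were those of ARZ_15637_T1 (−0.98) and ARZ_938_T1 (−0.95). ARZ_938_T1 was at 16.4 and 14.0 CPM with 4-hydroxybenzaldehyde, against 33.01 and 27.6 CPM in the control. The total of 7 called genes was 1 without the first control library and 3 without the second, and edgeR called 0 without either 4-hydroxybenzaldehyde library, with 10 higher and 5 lower at an unadjusted p under 0.05 without the first of these libraries and 7 and 5 without the second.

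Vanillin and 4-hydroxybenzaldehyde differed by edgeR in 17 of the 53 genes. Vanillin was higher in 8, where 8.89% of all genes were called higher, and lower in 9, where 8.62% were called lower. The median log2 difference was −0.14, and the rule, with its floor on vanillin alone, tilts this comparison towards vanillin. ARZ_6482_T1 was higher with vanillin by 1.29 ± 0.25 and ARZ_925_T1 lower by −0.89 ± 0.21 on the log2 scale. The count was 2 to 8 with 1 library of either group left out, 8 without the first vanillin library, 4 without the second, 2 without the first 4-hydroxybenzaldehyde library and 4 without the second.

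**Figure D3:**
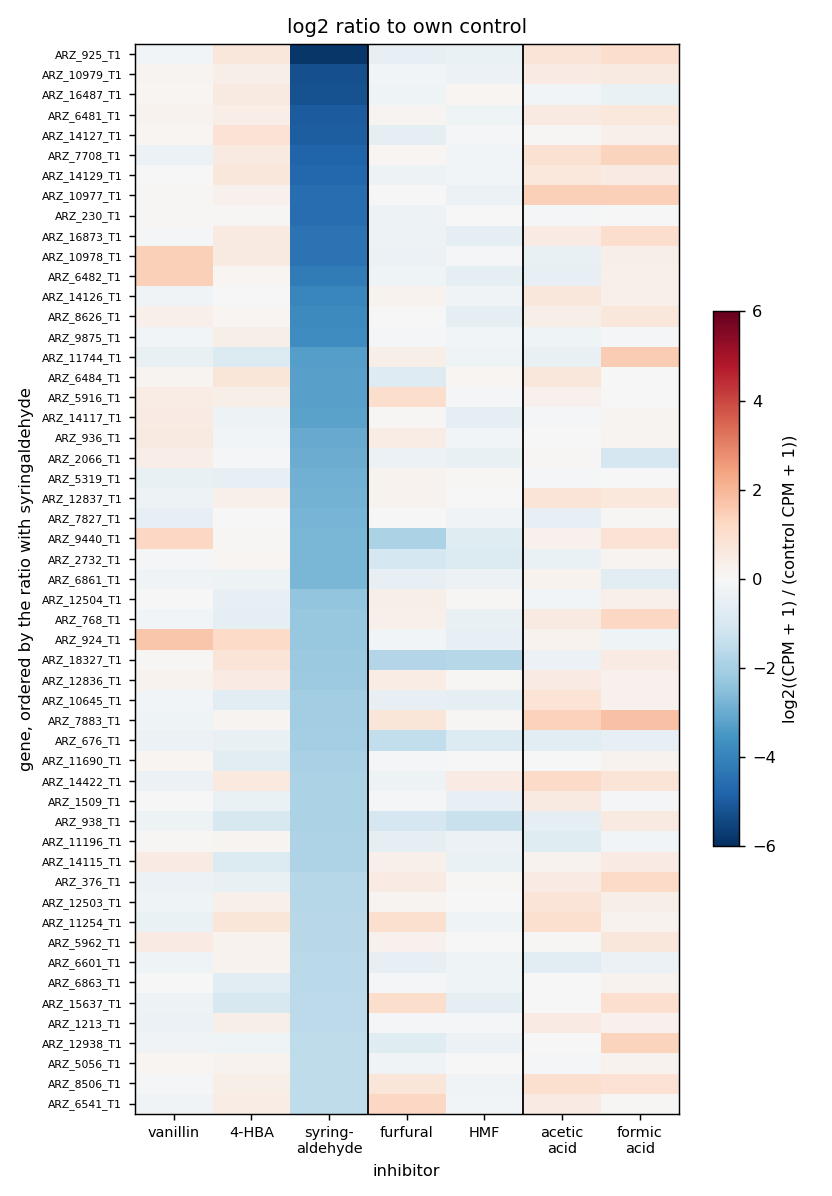
Log2 ratio of mean CPM (plus 1) to its own control for each of the 53 genes (rows, ordered by the ratio with syringaldehyde) and each of the 7 inhibitors (columns), blue for lower and red for higher, with 4-HBA for 4-hydroxybenzaldehyde. The syringaldehyde column spans −5.84 to −1.52, and no other column goes below −1.92.

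Under the other 6 inhibitors the rule barred any ratio larger in size than the syringaldehyde one. In 32 of the 53 genes the log2 ratio lay within 1 of 0 under all 6, as it did in 79.7% of all genes, and in 7 it lay within 0.5, as in 27.5% of all genes, those with few or no reads included. In 44 genes the 2 syringaldehyde libraries were the lowest of all 20 libraries, where this held for 3.1% of all genes. The genes were chosen for low syringaldehyde values, and nothing is read from that count. The mean CPM with syringaldehyde was below the means of both the furan control and the weak acid control in 48 genes. The share of all genes for which this held was not computed. The rule chose low syringaldehyde values, so nothing is read from this count either. In 36 of the 53 genes the phenolic aldehyde control was higher than both other controls, where this held for 40.3% of all genes. The syringaldehyde ratio was taken to that control, so the rule favours genes that are high in it, and nothing is read from the difference. Levels set across experiments compare libraries whose untreated controls were separate.

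The 5 genes for which syringaldehyde was not below both other controls had lower means in the furan and weak acid controls than in the phenolic aldehyde control. ARZ_6861_T1, given as an example chosen after its values were seen, was at 31.5 and 34.4 CPM with syringaldehyde, against 210 and 238 CPM in the phenolic aldehyde control. It was at 19.2 and 15.5 CPM in the furan control and at 10.9 and 11.1 CPM in the weak acid control. Its fall with syringaldehyde ended above the untreated level of both other experiments.

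With furfural, 11 of the 52 genes tested were called higher than the furan control, where 17.4% of all genes were, and 10 lower, where 16.9% were. The gene not tested, ARZ_12938_T1, had 0 and 0 CPM with furfural, against 0.921 and 0.381 CPM in the control. The median log2 ratio was −0.07, with a range of −1.92 to 1.25. ARZ_6541_T1 was at 542 and 597 CPM with furfural, against 249 and 229 CPM in the control, a log2 fold change of 1.33 ± 0.14. ARZ_9440_T1 was at 2.41 and 2.88 CPM with furfural, against 16.3 and 9.29 CPM in the control, a log2 fold change of −2.18 ± 0.30. Neither gene's groups overlapped, and the signs were opposite. ARZ_676_T1 was at 153 and 135 CPM with furfural, against 458 and 337 CPM in the control (−1.38 ± 0.15). The 11 higher and 10 lower became 9 and 4 without the first furfural library, 5 and 7 without the second, 9 and 4 without the first control library, and 5 and 10 without the second.

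With HMF the log2 ratio had a median of −0.24 and a range of −1.70 to 0.47, and 42 genes lay between −0.5 and 0.5. By edgeR 0 of 52 genes were called higher, where 5% of all genes were, and 6 were called lower, where 3.45% were. At an unadjusted p under 0.05 edgeR gave 1 higher gene and DESeq2 also 1. With adjusted p-values DESeq2, like edgeR, called 0 higher. ARZ_938_T1 was at 16.1 and 14.7 CPM with HMF, against 50.4 and 29.3 CPM in the control, a log2 fold change of −1.35 ± 0.21 with no overlap between the groups. Without the first control library 2 genes were called in place of 6. ARZ_18327_T1, named after its values were seen, was at 1.29 and 0.763 CPM with HMF and 0.862 and 1.03 CPM with furfural, against 5.46 and 5.71 CPM in the control.

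Furfural and HMF were not contrasted by the rule, and this difference was tested, although the rule limits the size of both ratios to control. The HMF libraries were numbered 3 and 4, and those of furfural and the furan control 1 and 2. What the numbers stand for is not stated, and any separate handling of the HMF libraries could not be told apart from HMF. Of the 52 genes tested, 16 were higher with furfural than with HMF, or 30.8%, where 17.2% of the 16398 genes tested were. A further 4 were lower, or 7.69%, where 17% of all genes were. Among genes with a mean of at least 10 CPM in the experiment, 13 of 42 were higher, where 20.3% of such genes were, and 2 were lower, where 22.6% were. The median log2 difference was 0.29 over the chosen genes and 0.00 over all genes tested. Without the second furfural library 7 were called higher and 3 lower.

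The largest difference between the furans was in ARZ_15637_T1. It was at 10.6 and 9.52 CPM with furfural and at 2.22 and 2.98 CPM with HMF, and the groups did not overlap. The log2 difference was 2.01 ± 0.34 (SE, n = 2 each, edgeR adjusted p = 7.96e-05). Its control libraries, at 6.03 and 2.74 CPM, were far apart, and its rise over the control (1.27 ± 0.32) lost its call without the second control library (edgeR adjusted p = 0.0945). ARZ_6541_T1, at 542 and 597 CPM with furfural and 213 and 218 CPM with HMF, differed by 1.46 ± 0.14 (edgeR adjusted p = 3.36e-08). It is the gene with the weakest fall under syringaldehyde of the 53.

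**Figure D4:**
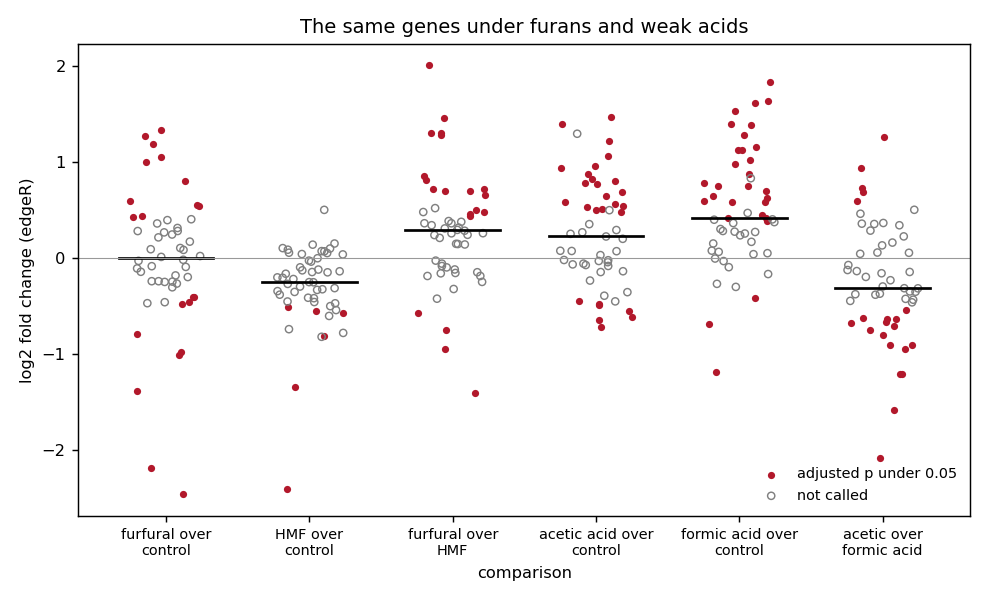
Fitted log2 fold changes of the chosen genes (52 for the furans, 53 for the acids) in 6 comparisons, with 1 point per gene, filled red where the edgeR adjusted p was under 0.05, and a black bar at the median. The medians are 0.29 for furfural over HMF, 0.42 for formic acid over its control and −0.31 for acetic over formic acid.

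With the weak acids more of the genes were higher than lower. With acetic acid 20 of the 53 genes were called higher, or 37.7%, where 19.7% of all genes were, and 7 lower, or 13.2%, where 18.3% were. With formic acid 26 were called higher, or 49.1%, where 20.9% of all genes were, and 3 lower, or 5.66%, where 18.8% were. The rule capped the size of these ratios by that of the syringaldehyde ratio, and the acids shared their control libraries, so nothing is read from the counts. The median log2 ratio was 0.21 with acetic acid and 0.31 with formic acid. Without the second acetic acid library 16 genes were called, all higher, and without the first formic acid library 16 were higher and 2 lower.

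ARZ_7883_T1 was at 1923 and 1676 CPM in the acetic acid libraries and 2167 and 2484 CPM in the formic acid libraries, against 578 and 799 CPM in the weak acid control. Both acids lay above the control with no overlap, by log2 fold changes of 1.40 ± 0.19 for acetic acid and 1.84 ± 0.20 for formic acid. ARZ_10977_T1 was at 281 and 307 CPM with acetic acid, against 107 and 108 CPM in the control, a log2 fold change of 1.47 ± 0.15. The same gene was at 8.04 and 8.20 CPM with syringaldehyde, against 220 and 213 CPM in the phenolic aldehyde control.

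Acetic and formic acid, which were not contrasted by the rule either, were given at different doses, and their values are set side by side as those of the 2 groups. Acetic acid was higher than formic acid in 5 of the 53 genes, or 9.43%, where 11.8% of the 16714 genes tested were, and lower in 16, or 30.2%, where 13.3% were. Among genes with a mean of at least 10 CPM in the experiment, 3 of 47 were higher, where 12.2% of such genes were, and 14 were lower, where 16.5% were. The median log2 difference was −0.31 over the chosen genes and 0.01 over all genes tested. The total of 21 became 12 without the first formic acid library and 12 without the second, with 2 higher and 10 lower each time. Without the second acetic acid library 6 were higher and 9 lower.

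The largest difference between the acids was in ARZ_11744_T1, at 47.5 and 26.0 CPM with acetic acid and 156 and 140 CPM with formic acid. One acetic acid library lay within the range of the control, which was at 43.0 and 58.0 CPM, the other below it, and both formic acid libraries above it. The log2 difference was −2.08 ± 0.24 (SE, n = 2 each, edgeR adjusted p = 0.000116), and formic acid stood above its control by 1.63 ± 0.24. ARZ_12938_T1 was at 4.87 and 3.54 CPM with acetic acid and 14.0 and 9.82 CPM with formic acid, a log2 difference of −1.58 ± 0.24 (edgeR adjusted p = 0.000187).

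Some of the chosen genes lay close together in identifier number. Of the 53, 21 (39.6%) had another chosen gene within 5 numbers, and 434 of all 18830 genes (2.30%) had a chosen gene that near. These 21 genes formed 9 short runs. Of 397 other genes within 5 numbers of a chosen gene that were tested, 70 (17.6%) were called lower with syringaldehyde, beside 13.2% of all genes. Their median log2 fold change was 0.03. These values pool the surroundings of all 53 genes, so they do not tell whether single runs moved together. Next to ARZ_925_T1, for example, ARZ_926_T1 and ARZ_927_T1, which were not chosen, had log2 ratios of −4.88 and −3.93 with syringaldehyde. In the same surroundings ARZ_923_T1 had −0.01. Whether the numbers follow the order of genes along the genome is not stated in the sources used here. All of this was described after the values were seen.

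Over the 20 libraries, the gene whose log2(CPM + 1) pattern was most like that of a chosen gene was itself a chosen gene in 33 of 53 cases. The highest Pearson r of each chosen gene, over 16184 genes with a mean of at least 1 CPM, ran from 0.857 to 0.995 with a median of 0.954. The most similar gene lay within 5 numbers in 3 of the 53 cases, and the share of all genes for which this holds was not computed. Among the 1378 pairs of chosen genes r had a median of 0.717 and a range of −0.37 to 0.995. The 20 libraries share 3 experiments and the syringaldehyde pair that chose the genes, so these values describe likeness and carry no test.

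The most similar pair was ARZ_925_T1 and ARZ_14129_T1, with r = 0.995. ARZ_14129_T1 was at 24.7 and 37.8 CPM with syringaldehyde, 940 and 723 CPM with vanillin and 1358 and 1365 CPM with 4-hydroxybenzaldehyde, against 843 and 839 CPM in the control, with the same order of groups as ARZ_925_T1. The next pair was ARZ_7708_T1 and ARZ_16873_T1, with r = 0.992. ARZ_7708_T1 was at 30.8 and 46.6 CPM with syringaldehyde, against 1188 and 1038 CPM in the control. ARZ_16873_T1 was at 30.3 and 46.4 CPM with syringaldehyde, against 940 and 766 CPM in the control.

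The first of these pairs lies in 2 stretches of identifiers with several matched genes in opposite order. Of the genes compared above, 18 lay from ARZ_922_T1 to ARZ_940_T1 and 17 from ARZ_14113_T1 up. In 9 pairs the genes were each other's closest pattern between the stretches, with r of at least 0.8 (0.805 to 0.995). The closest pattern over all genes compared was looked up for chosen genes only. Among those in the 9 pairs, ARZ_938_T1, ARZ_14115_T1 and ARZ_14117_T1 each had a closer gene elsewhere. The genes of the pairs that were not chosen were not checked for this. In each of the 9 the identifier numbers added up to 15053 or 15054, so one stretch ran up as the other ran down. In 3 pairs both genes were chosen genes and in 6 neither was. ARZ_936_T1 and ARZ_14117_T1, a pair of the first kind with r = 0.958, were at 3.61 and 6.10 CPM and at 4.79 and 3.87 CPM with syringaldehyde, against 48.5 and 43.3 CPM and 55.2 and 42.4 CPM in the control. Whether such pairs are copies of 1 gene was not tested, and 53 may overstate the number of separate cases.

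Within these stretches, genes that the rule left out also had low ratios with syringaldehyde. ARZ_926_T1 and ARZ_14128_T1, which neighbour ARZ_925_T1 and ARZ_14129_T1, had log2 ratios of −4.88 and −4.89 with syringaldehyde but −1.15 and −0.70 with vanillin, under the floor. In all, 7 stretches were formed by joining chosen genes no more than 15 numbers apart. In them 45 of the genes compared were not chosen, and 7 of these had a log2 ratio of −1.5 or lower with syringaldehyde. In 6 of the 7 the ratio with vanillin was −0.5 or lower. ARZ_6862_T1, between ARZ_6861_T1 and ARZ_6863_T1, had −6.93 with syringaldehyde and −1.44 with vanillin. The genes were named after their values were seen.

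**Figure D5:**
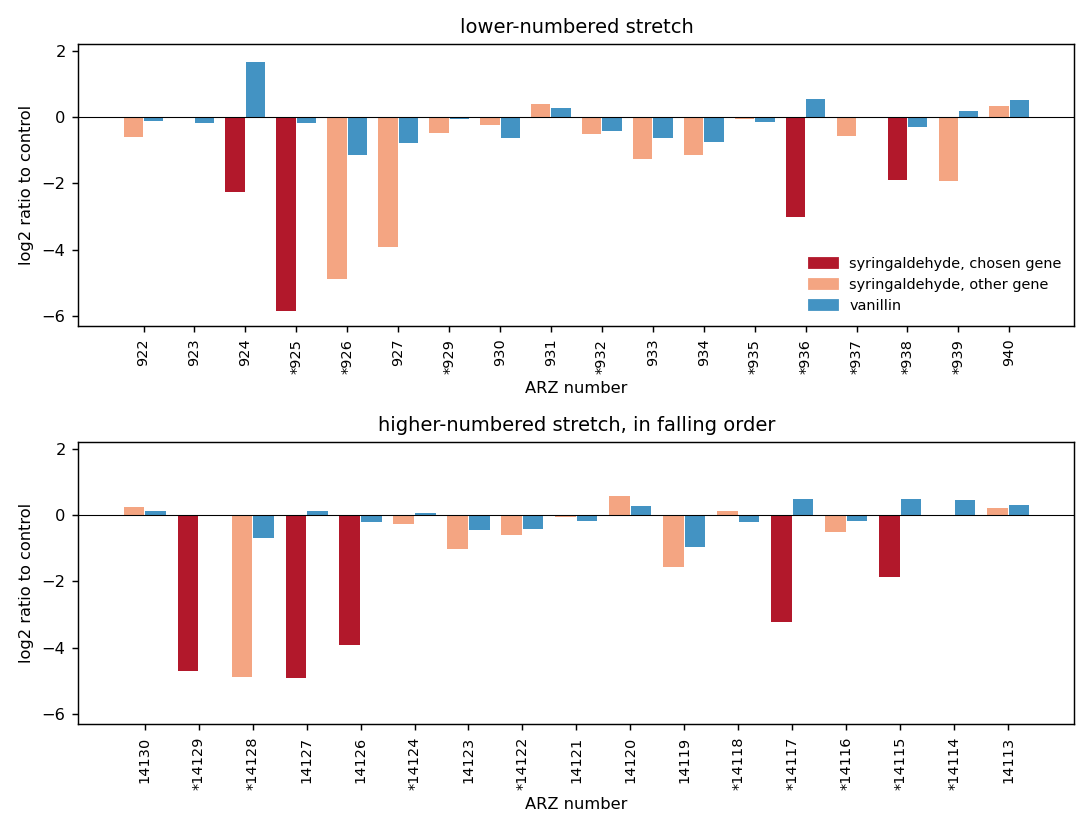
Log2 ratio to the phenolic aldehyde control with syringaldehyde (red for chosen genes, pale for others) and vanillin (blue) along 2 stretches of identifier numbers, the second drawn in falling order, with stars at the 9 pairs whose genes are each other's closest pattern between these 2 stretches. The syringaldehyde ratio is −5.84 for 925 and −4.70 for its partner 14129, and −1.94 for 939 and −0.04 for 14114.

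The floor on vanillin separates the 53 genes from 77 others that met the syringaldehyde conditions but had a ratio of −0.5 or lower with vanillin. The median log2 ratio with syringaldehyde was −2.73 in the 53 genes and −1.78 in the 77, and with 4-hydroxybenzaldehyde it was 0.18 and −0.34. Under furfural, HMF, acetic acid and formic acid the medians of the 53 were −0.07, −0.24, 0.21 and 0.31, beside −0.11, −0.27, 0.16 and 0.45 in the 77. The lists differ by the rule in the vanillin ratio and share the control, so the medians are given side by side with no test. Moving the syringaldehyde threshold to −1 gave 127 genes and to −2 gave 35, and asking for a vanillin ratio above 0 gave 25.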

How the data were processed

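The authors deposited raw read counts of 18830 genes in 3 tables, 1 for each experiment, made from Ion Proton libraries of Trizol-extracted RNA, per the labels. How reads were aligned and counted is not given in the sources used here. Per the submitters' processing notes, the build was Sscrofa 10.2, a pig assembly that does not go with the ARZ identifiers, so no coordinates are given. CPM were computed from the column sums. Each table was fitted with edgeR 4.0.16 (R 4.3.3): TMM scaling (factors 0.942 to 1.05), filterByExpr, a robust quasi-likelihood fit over all groups of the table, 2-sided tests, and Benjamini-Hochberg adjustment over all genes tested (17495 phenolic aldehydes, 16398 furans, 16714 weak acids). The SE given was the size of the log2 fold change divided by the square root of its F statistic. Its spread was estimated over all groups of the table, not from the 2 groups compared alone. The fit was tested on simulated data. The filter kept all 53 genes in 2 tables and 52 in the furan table. DESeq2 1.42.0, other scaling, no filter, only the groups compared, leaving out each library, and a replicate block were alternatives.

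Genes named were at most 2 in each direction for each criterion: the largest fall with syringaldehyde and the largest changes in each furan and acid comparison (at least 10 CPM), the highest control level, those nearest each threshold, the highest and lowest ratios with vanillin and 4-hydroxybenzaldehyde, and the most similar pairs; others are marked as chosen after their values were seen. The genes and criteria were chosen with earlier results of these data known. Each count has counting error only in its interval.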

Additional observations from a re-analysis of the deposited data

How the results depend on the processing

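Leaving out each library in turn gave 44 to 87 chosen genes, and other thresholds gave 127 (syringaldehyde ratio of −1), 35 (−2) and 25 (vanillin ratio above 0). The number of chosen genes called with 4-hydroxybenzaldehyde was 14 by DESeq2, 19 with only the 2 groups in the fit and 0 to 3 with 1 library left out. Vanillin against 4-hydroxybenzaldehyde gave 30 with only the 2 groups and 2 to 8 with 1 library left out. The same leave-one-out ranges were 12 to 15 for furfural, 2 to 7 for HMF, 10 to 25 for furfural against HMF, 16 to 28 for acetic acid, 18 to 29 for formic acid and 12 to 23 for acetic against formic acid. They were 52 to 53 for syringaldehyde against control and 47 to 53 against vanillin. Replicate numbers did not pair the libraries (deviations of same-numbered libraries correlated at −0.12 to 0.17). With a replicate block, counts were 53, 4 and 8 for syringaldehyde, vanillin and 4-hydroxybenzaldehyde over control, 53, 51 and 17 between them, 29 for furfural, 27 for acetic acid, 29 for formic acid and 24 between the acids; the HMF libraries share no numbers with others. Of 132 alternative counts 108 stayed within 1.5 times the reported one, and of 276 alternative fits of single named genes 20 lost the call and 0 changed sign. Duplicates of 2 limit every count, and genes of few reads (20 syringaldehyde reads in all for ARZ_12938_T1) are the least precise.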
